A study of Homo sapiens with 2 samples.

Results

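The nuclear genome carries copies of mitochondrial DNA, and 7 such copies lie side by side on chromosome 1 at about 0.56 to 0.57 Mb of GRCh37: MTND1P23, MTND2P28, MTCO1P12, MTCO2P12, MTATP8P1, MTATP6P1 and MTCO3P12. They were taken by symbol and position from 57736 listed genes, and the group was chosen on the TPM of these same libraries, in which several of the copies ranked among the highest genes. Their levels are therefore given as a description, without a test. All 7 were found in the tables, and all 7 had enough reads for every comparison made here.

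Transcripts were quantified by RNA-Seq after poly(A)+ selection from HEK293T, a line derived from embryonic human kidney and transformed with SV40 large T antigen. The labels give the genotype as wild type and the tissue as kidney. The heat shock lasted 20 min at 43 °C, recovery lasted 6 h at 37 °C, and 2 replicates, lysed separately, were sequenced with 50 bp reads. The replicates form 1 group, untreated cells are not analysed here, and no change with heat shock could be measured. The heating time is that of the labels, and the study's text gives a longer one. That text describes RNA-Seq after a shorter recovery and also after one of 6 h. Nothing in the labels says whether the replicates came from separate cultures, so the spread between them may be technical.

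The mitochondrial genome encodes subunits of the respiratory chain and of ATP synthase, which carry out oxidative phosphorylation, and most of its mRNAs are polyadenylated. Pieces of this genome have been inserted into nuclear chromosomes during evolution. Such insertions keep the order of the mitochondrial genes but are annotated as pseudogenes, because the nuclear and mitochondrial genetic codes differ and the copies gather mutations. A short read from a region where copy and original are identical cannot be assigned to either by its sequence.

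The 7 copies followed each other on the plus strand of chromosome 1 over 5861 bases, chr1:564442-570302. In the reference genome this stretch aligned to positions 3898 to 9753 of the mitochondrial chromosome, 35.3% of its 16569 bases, with 94 differences and an identity of 98.4%. Each copy is annotated as an unprocessed pseudogene, and each deposited gene length equalled the annotated one. MTND1P23 (ENSG00000225972, chr1:564442-564813) and MTND2P28 (ENSG00000225630, chr1:565020-566063) correspond to MT-ND1 and MT-ND2, subunits of complex I. MTCO1P12 (ENSG00000237973, chr1:566454-567996), MTCO2P12 (ENSG00000229344, chr1:568137-568818) and MTCO3P12 (ENSG00000198744, chr1:569756-570302) correspond to the 3 mitochondrial subunits of cytochrome c oxidase, complex IV. MTATP8P1 (ENSG00000240409, chr1:568915-569121) and MTATP6P1 (ENSG00000248527, chr1:569076-569756) correspond to the membrane subunits of ATP synthase.

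The shortest copy, MTATP8P1, had the highest level per length, and the second nuclear copy listed for MT-ATP8, MTATP8P2 on the plus strand of chromosome 2 (chr2:88124461-88124662), was the only other copy in the 7 gene families to take more than 2% of a family's reads in either library. Both sequences are therefore shown from the GRCh37 reference. Capitals in MTATP8P1 mark the bases that differ from the mitochondrial chromosome, and capitals in MTATP8P2 mark the bases that differ from MTATP8P1.
MTATP8P1: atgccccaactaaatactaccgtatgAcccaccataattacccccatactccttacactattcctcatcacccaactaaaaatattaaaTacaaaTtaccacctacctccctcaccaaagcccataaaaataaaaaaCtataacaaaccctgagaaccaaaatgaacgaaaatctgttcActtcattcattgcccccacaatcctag
MTATP8P2: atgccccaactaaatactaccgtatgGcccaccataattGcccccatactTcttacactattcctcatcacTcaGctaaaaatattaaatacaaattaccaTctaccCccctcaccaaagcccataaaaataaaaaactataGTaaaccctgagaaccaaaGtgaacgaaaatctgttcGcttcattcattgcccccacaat
MTATP8P1 differed from the mitochondrial chromosome at 5 of 207 positions, all transitions: G27A, C90T, C96T, T138C and G180A, written as the mitochondrial base, the position counted from the 5′ end of the copy, and the base of the copy. MTATP8P2, with 202 bases, differed from MTATP8P1 by 11 substitutions (94.6% identity) and from the mitochondrial chromosome by 12 (94.1%). The last 46 bases of MTATP8P1 are also the first 46 of MTATP6P1 (chr1:569076-569121), as they are in the mitochondrial genome, where both reading frames overlap.

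The opposite case is the start of MTND2P28, shown because it holds the longest run, 266 bases (chr1:565020-565285, plus strand), that a member shares with the mitochondrial chromosome without a difference. No read of 50 bases from inside it could distinguish the nuclear from the mitochondrial reference sequence. It has no capitals, because no base differs.
MTND2P28 identical run: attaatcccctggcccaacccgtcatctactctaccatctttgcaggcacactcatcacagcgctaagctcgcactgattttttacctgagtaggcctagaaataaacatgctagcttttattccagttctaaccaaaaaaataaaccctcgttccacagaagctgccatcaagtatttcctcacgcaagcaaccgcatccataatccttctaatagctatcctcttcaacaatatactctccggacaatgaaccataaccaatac

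With each annotated gene aligned over its whole length, identity to the mitochondrial chromosome ranged from 97.0% for MTND1P23 to 98.6% for MTCO1P12. In MTND1P23 the 6 inserted bases and the substitutions C3T, C14A and G22A lay within its first 22 bases. Only G157A and A213G lay further in, so its low identity rests mostly on that end. Over the 7 copies 74 distinct substitutions were counted, with the base in the overlap of MTATP8P1 and MTATP6P1 counted once, of which 68 were transitions (27 C-to-T, 15 A-to-G, 14 G-to-A and 12 T-to-C changes from the mitochondrial base to the base of the copy) and 6 were transversions. Over whole annotated genes, with the start of MTND1P23 counted, substitutions were densest in MTATP8P1, at 2.42 per 100 bases. They were sparsest in MTCO3P12, at 1.10 per 100 bases. MTATP8P1, MTATP6P1, MTND2P28, MTCO1P12 and MTCO2P12 spanned the whole of their mitochondrial gene, whereas MTND1P23 aligned to 38.2% of MT-ND1 and MTCO3P12 to 69.8% of MT-CO3, the genes at which the insertion begins and ends.

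The share of a copy that a read could place was counted as 50-base windows, the length of the reads. Both sequences were those of the reference. The mitochondrial DNA of these cells, which may differ from it, was not examined. Of 4733 windows in the 7 copies, 2089 (44.1%) also occurred without a mismatch in the mitochondrial chromosome, 220 (4.65%) occurred elsewhere in the nuclear genome, and 2499 (52.8%) occurred in neither. MTND1P23 shared the most with the mitochondrial chromosome (62.2% of its windows), followed by MTCO1P12 (49.4%), MTATP6P1 (46.7%), MTCO3P12 (45.2%), MTND2P28 (43.5%) and MTCO2P12 (29.1%). MTATP8P1 shared the least, with 13 of 158 windows (8.23%). With up to 2 mismatches allowed, the shares rose to between 88.2% (MTCO2P12) and 98.7% (MTATP8P1). A window read with those mismatches was therefore close to the mitochondrial sequence in nearly every place. Perfect matches elsewhere in the nuclear genome were found for MTCO2P12 (131 windows, 20.7%), MTATP6P1 (60) and MTCO1P12 (29), and for no window of the other members.

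**Figure D1:**
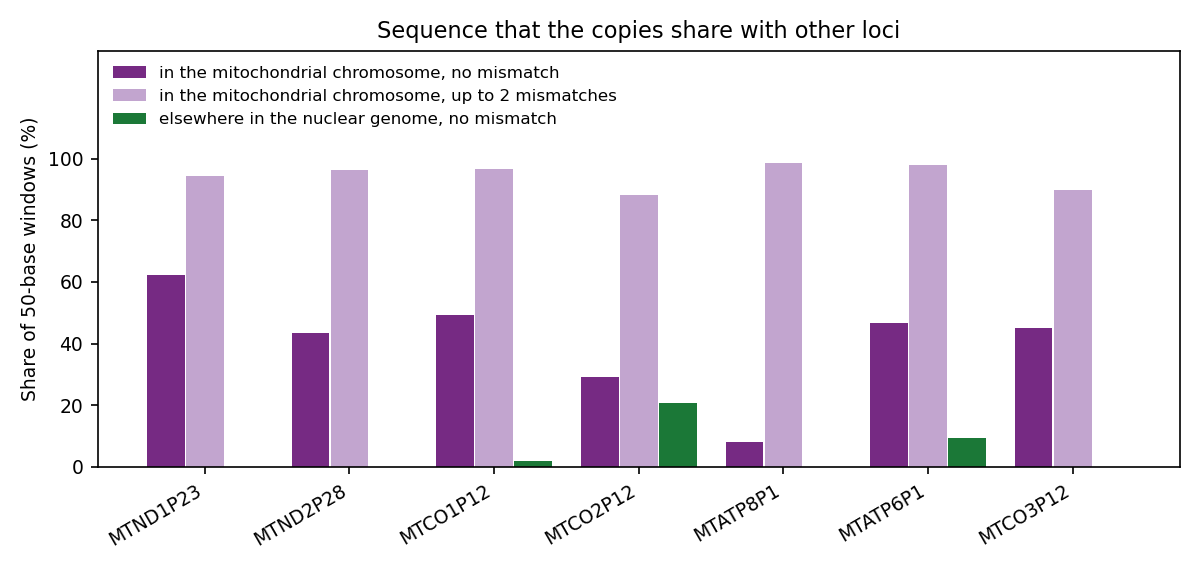
Share of the 50-base windows of each member (%) that occur in the mitochondrial chromosome without a mismatch (dark bars), there with up to 2 mismatches (light bars), or elsewhere in the nuclear genome without a mismatch (green bars). MTATP8P1 has the lowest share of perfect matches, 8.23%, and the highest share with up to 2 mismatches, 98.7%.

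Of the 37 genes that the annotation places on the mitochondrial chromosome, 0 were listed in the tables used here, and the TPM (reads per effective length of the transcript, scaled so that all genes add up to a fixed total) of the listed genes already summed to 1000000 in replicate 1 and 999999 in replicate 2. The mitochondrial sequence was therefore also compared in the reverse direction, by asking which listed nuclear copy each 50-base window of the mitochondrial chromosome resembles most. Over the part that each member covers, the member had fewer mismatches than any other listed copy of its gene for 100% of windows at MTND2P28 and MTATP6P1, 98.1% at MTND1P23, 93.7% at MTATP8P1, 93.0% at MTCO3P12, 90.2% at MTCO1P12 and 70.1% at MTCO2P12. Most remaining windows were ties, such as the 22.4% at MTCO2P12 and the 6.33% at MTATP8P1, where MTATP8P2 had as few mismatches. In the rest another listed copy was nearer than the member: 7.56% of windows at MTCO2P12, 3.88% at MTCO1P12, 2.01% at MTCO3P12 and 1.26% at MTND1P23. Reads transcribed from the chromosome 1 locus and reads transcribed from mitochondrial DNA cannot be told apart in these gene-level tables. Every level below is the level assigned to a listed gene.

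Depth was 22529828 expected counts in replicate 1 and 26890199 in replicate 2. An expected count is the number of reads that the quantifier assigned to a gene after sharing reads that fit several genes. The 7 members received 1696629 and 1820647 of these reads, in replicates 1 and 2. That is 7.53% and 6.77% of all expected counts (7.15% ± 0.537, SD, n = 2), but 15.5% and 16.8% of all TPM (16.2% ± 0.908). The 2 units moved in opposite directions between the libraries. Without MTATP8P1, a choice made after the data were seen, both moved the same way: the other 6 members held 11.4% and 10.0% of TPM and 6.996% and 5.94% of counts.

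Among the complex I copies, MTND1P23 had the lowest level of all members, with TPM of 4490 in replicate 1 and 3721 in replicate 2 (4105 ± 544, SD, n = 2) from 26524 and 25013 reads. MTND2P28 had TPM of 8258 and 7549 (7904 ± 501) from 149998 and 156061 reads. MTND2P28 stood above MTND1P23 in both libraries without overlap.

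Of the cytochrome c oxidase copies, MTCO1P12 took more reads than any other gene in either library, 496486 and 515833. Its TPM was 18210 and 16623 (17417 ± 1122), rank 5 in both libraries, since these reads are spread over 1543 bases. MTCO2P12, with 294734 and 291433 reads over 682 bases, had the higher TPM of 25493 and 22149 (23821 ± 2364). MTCO1P12 thus held 1.68 and 1.77 times the reads of MTCO2P12 but 0.714 and 0.751 times its TPM. MTCO3P12 had 203889 and 200116 reads and TPM of 22407 and 19325 (20866 ± 2180). MTCO2P12 lay above MTCO3P12 within each library, but their ranges over the 2 libraries overlapped. MTCO3P12 lay above MTCO1P12 without overlap.

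The ATP synthase copies were the highest members per length. MTATP6P1 had 404606 and 408520 reads and TPM of 35052 and 31097 (33074 ± 2796), rank 2 in both libraries. MTATP8P1 had 120392 and 223672 reads and TPM of 41542 and 67833 (54688 ± 18591), rank 1 in both. Its SD was 34.0% of its mean, whereas those of the other members were 6.34% to 13.2%. Relative to MTATP6P1, with which it overlaps, MTATP8P1 had 0.298 and 0.548 times the reads and 1.19 and 2.18 times the TPM.

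**Figure D2:**
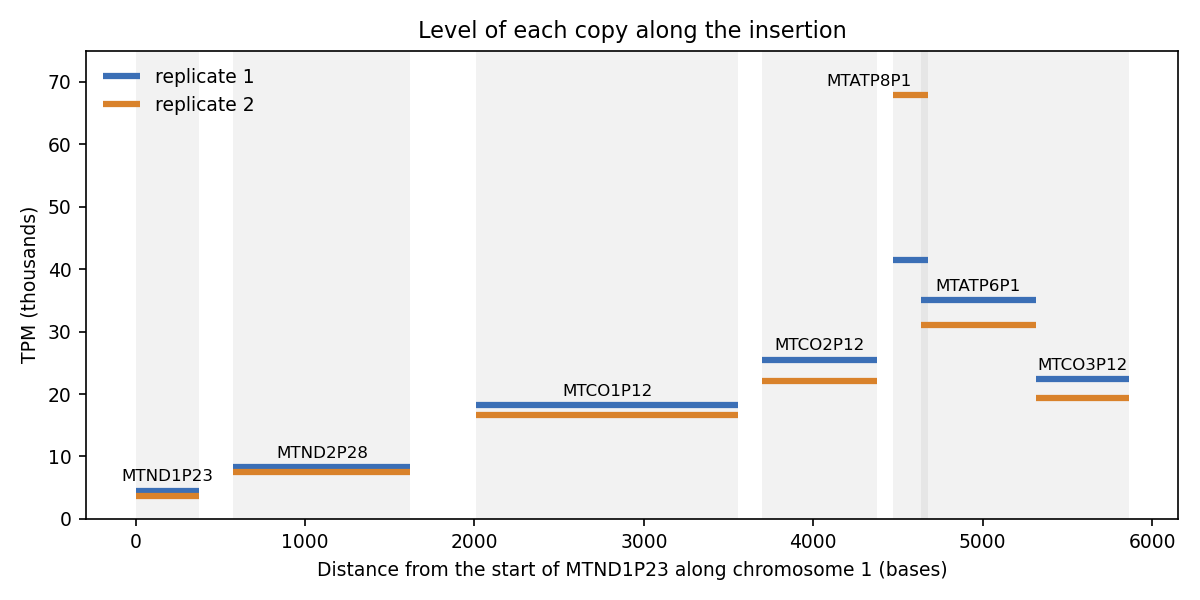
TPM (in units of 1000) of each member in replicate 1 (blue) and replicate 2 (orange), drawn over the bases that the gene covers, with the distance from the start of MTND1P23 on the horizontal axis. The level is lowest for MTND1P23 and highest for MTATP8P1, and MTATP8P1 is the member that is higher in replicate 2.

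The order of TPM in both libraries was MTATP8P1, MTATP6P1, MTCO2P12, MTCO3P12, MTCO1P12, MTND2P28 and MTND1P23. The highest member exceeded the lowest 9.25-fold in replicate 1 and 18.2-fold in replicate 2. All neighbours in this order, other than MTCO2P12 and MTCO3P12, had ranges over the libraries that did not overlap. Along the insertion, TPM was lower in the first copies (MTND1P23, MTND2P28) and higher in the later ones, with the peak at MTATP8P1 and MTATP6P1. The members' share of TPM held by MTATP8P1 was 26.7% in replicate 1 and 40.3% in replicate 2, against 7.10% and 12.3% of the members' counts.

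Length entered these values as an effective length, the number of positions at which a read can start, which was shorter than the annotated length by about the length of a read. The effect was largest for the shortest gene: MTATP8P1 had an effective length of 158.9 of 207 bases in replicate 1, and its TPM was raised 1.303-fold relative to a division by full length, compared with 1.032-fold for MTCO1P12. Divided by full length, MTATP8P1 stood at 0.979 times MTATP6P1 in replicate 1 and 1.80 times in replicate 2. Rank 1 of MTATP8P1 in replicate 1 therefore depended on the effective length, and in replicate 2 it did not.

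**Figure D3:**
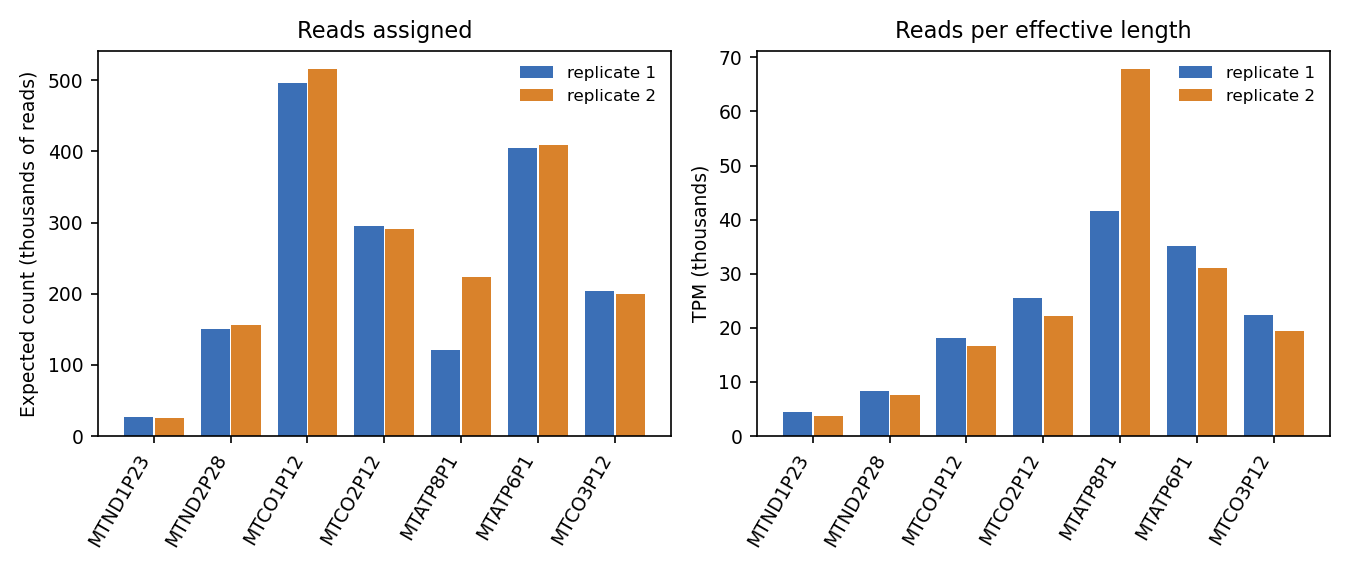
Expected counts (left, in units of 1000 reads) and TPM (right, in units of 1000) of the 7 members in replicate 1 (blue) and replicate 2 (orange), 1 bar per library. MTCO1P12 leads by reads, with 496486 and 515833, and MTATP8P1 leads by TPM, with 41542 and 67833.

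For scale, the summed TPM of the members was 6.99 and 9.06 times that of 6 abundant nuclear genes together: RPS2 and RPLP0 (ribosomal proteins), EEF1A1 (translation elongation), ACTB and TUBA1B (cytoskeleton) and GAPDH (glycolysis). RPS2, the highest of these, had a mean TPM of 7213, below that of MTND2P28 but above that of MTND1P23. EEF1A1 had 3486, ACTB 3092, GAPDH 2481, TUBA1B 2432 and RPLP0 1716. Because TPM is a share, leaving out the 7 members multiplied the TPM of every other gene by 1.18 in replicate 1 and 1.20 in replicate 2. At a limit of 1 TPM in both libraries, 15181 other genes were detected as deposited and 15670 after this rescaling, 489 more.

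The members were next set beside the other nuclear copies of mitochondrial genes, 394 copies in all. The 7 members are 1.78% of these copies and received 81.0% and 81.7% of the copies' reads. The group was chosen on TPM in these libraries, so this share and the family shares below are a description. Of the other 387, 239 had no reads in either library, 27 reached a TPM of 1 in both, and 4 had more reads than MTND1P23, the lowest member, in both. In 6 of the 7 gene families the member held nearly all reads assigned to the family. The share was 99.8% (exact Clopper-Pearson 95% interval 99.76 to 99.87) and 99.7% for MTND1P23 among 34 copies, 99.99% and 99.97% for MTND2P28 among 33, 98.1% and 98.2% for MTCO1P12 among 46, 99.5% and 99.6% for MTCO2P12 among 29, 99.997% and 99.993% for MTATP6P1 among 25, and 99.9% in both for MTCO3P12 among 37. Such intervals cover counting error only.

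The next copy in each family was far below the member. MTND1P32 had 11 and 18.9 reads, MTND2P40 had 8 and 21, and MTATP6P19 had 2 and 12, the same total as MTATP6P27 with 9 and 5. MTCO3P22 had 148 and 138 reads, MTCO2P22 had 1438 and 1302, and MTCO1P40 had 7600 and 7265. These copies are numerous in the annotation and low in the tables, while the chromosome 1 copy is high in each family.

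MTATP8P was the exception. MTATP8P1 held 81.1% (95% interval 80.9 to 81.3) of the reads of its 2 listed copies in replicate 1 and 95.8% (95.8 to 95.9) in replicate 2. MTATP8P2 had 28064 reads in replicate 1 and 9717 in replicate 2, with TPM of 9998 and 3043. The copy with more reads in replicate 2 was thus MTATP8P1, and the copy with fewer was MTATP8P2, which was 3.51-fold lower there after TMM scaling (a scaling of library sizes on the bulk of genes). Summed, the pair had 148457 and 233389 reads.

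For 7 of the 13 protein-coding genes of mitochondrial DNA, the copy with the most reads was a member. For another 5 it lay on chromosome 5 between 134258993 and 134264016: MTND4P12, MTND4LP30, MTND5P11, MTND6P4 and MTCYBP18, with summed TPM of 23259 and 21950. These 5 copies held 96.8% (MTCYBP18) to 99.4% (MTND4LP30) of their families' counts over both libraries. A near-total share of a family was thus not particular to the chromosome 1 members. The remaining gene, MT-ND3, begins beyond the end of the chromosome 1 stretch. Of its 21 listed copies, the one with the most reads over both libraries, MTND3P19 on chromosome 5 (chr5:99386423-99386767), had 6 and 2. MTND3P25, a partial copy next to the other copies on chromosome 5 (chr5:134264083-134264217), had 0 and 7 reads.

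RSEM, the quantifier named in the submitters' processing notes, gives for each gene a posterior SD of the count, a measure of how far reads could be moved between genes that fit them equally well. It was 0 in both libraries for MTND1P23 and 0.06 and 0.07 reads for MTND2P28. For MTCO2P12 it was 2.59 and 2.21 reads, for MTATP6P1 16.9 and 16.5, for MTCO3P12 19.4 and 20.0, and for MTCO1P12 27.3 and 25.2. MTATP8P1 had the largest, 168 and 68.5 reads, and MTATP8P2 had almost the same values, 168 and 68.3. All these values are small beside the counts: that of MTATP8P1 was 0.140% of its count in replicate 1 and 0.0306% in replicate 2. They describe sharing among the listed genes only, and a transcript outside that list takes no part in them. Among genes with at least 1000 reads, 36.1% in replicate 1 and 35.7% in replicate 2 also had a posterior SD of 0, and 21.6% and 43.1% had a larger one, relative to the count, than MTATP8P1.

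**Figure D4:**
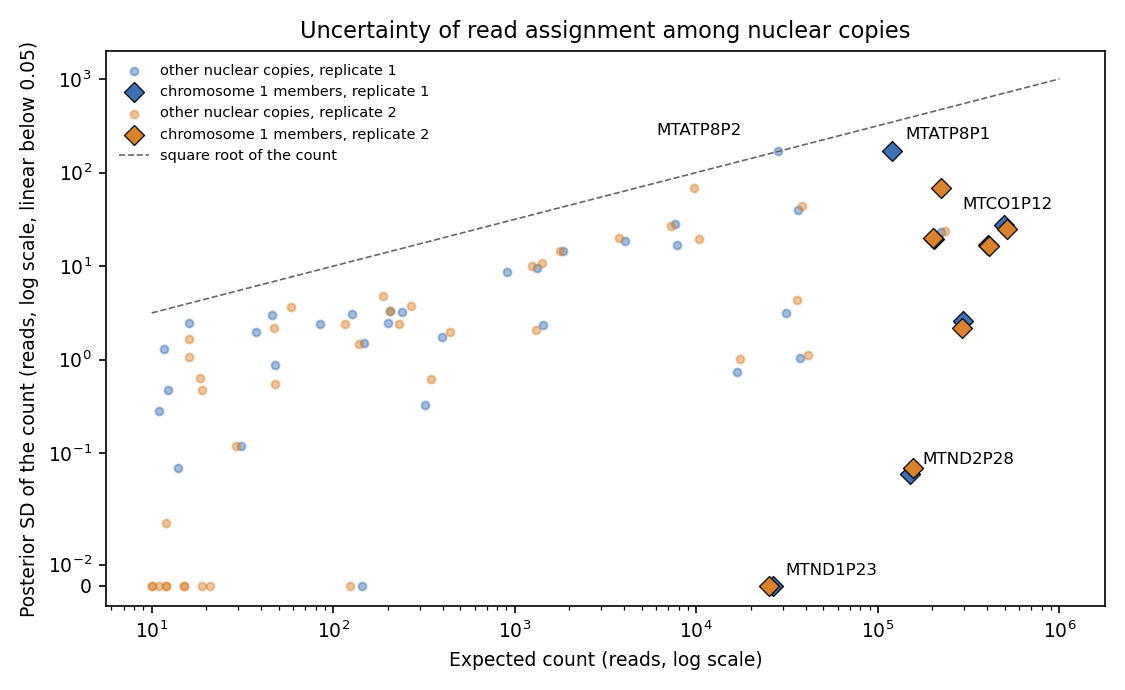
Posterior SD of the count (reads, log scale, linear below 0.05) against the expected count (reads, log scale) for nuclear copies of mitochondrial genes with at least 10 reads, with members as diamonds and other copies as circles, and with the square root of the count as a dashed line. All members lie below the line, MTND1P23 at 0 and MTATP8P1 highest, and MTATP8P2 shares the values of MTATP8P1, 168 and 68.3.

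The third deposited table, which covers the series, was read here as pooled over both libraries and was compared with their sum. For 6 members the pooled count differed from the sum of the libraries by less than 10 reads. For MTATP8P1 it was 5505 reads above the sum, and for MTATP8P2 it was lower than the sum by nearly as many, so the pair together differed by 1.37 reads. The shift was 38.5 times the posterior SD of MTATP8P1 in the pooled table alone. The posterior SDs of the libraries, 168 and 68.5 reads, were left out of this multiple, and with them it would be smaller. The division of reads between MTATP8P1 and MTATP8P2 thus differed between the tables by more than the posterior SD, while their sum barely differed. How the pooled table was made is not stated, and the cause was not tested.

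The 95% credibility bounds of TPM showed a further difference between columns. In both libraries all 7 members had a TPM above their own upper bound, for example 41542 against bounds of 39972 to 40465 for MTATP8P1 in replicate 1, and 67833 against 65668 to 66194 in replicate 2. Of the 15735 and 16414 genes with a TPM of at least 1, 2.03% and 1.67% lay above their upper bound. The posterior mean TPM of each member was 0.968 times its TPM in replicate 1 and 0.972 times in replicate 2, where the medians over those genes were 1.007 and 1.004. The bounds of the members were narrow, 0.56% to 2.48% of the posterior mean in width. The cause of the offset was not tested.

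The replicates were then compared gene by gene, which compares these 2 libraries and not conditions. The ratio of replicate 2 to replicate 1, on TMM-scaled counts, was below 1 for 6 members and above 1 for MTATP8P1. For the complex I copies it was 0.776 (95% counting interval 0.762 to 0.789) for MTND1P23 and 0.856 (0.850 to 0.862) for MTND2P28. The cytochrome c oxidase copies had ratios of 0.855 (0.851 to 0.858) for MTCO1P12, 0.813 (0.809 to 0.817) for MTCO2P12 and 0.807 (0.802 to 0.812) for MTCO3P12. MTATP6P1 had a ratio of 0.830 (0.827 to 0.834). MTATP8P1 went the other way, with a ratio of 1.53 (1.52 to 1.54), a log2 ratio of 0.61, where the other 6 members lay between -0.37 and -0.22.

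All 7 differences passed an exact binomial test with Benjamini-Hochberg adjustment over all genes tested. The background was high, 41.6% (8198 of 19714 genes), with 21.7% higher and 19.9% lower in replicate 2, and among the 796 genes with 10000 or more reads over both libraries it was 89.9%. The members' 7 of 7 is therefore close to the background of genes sequenced as deeply. An edgeR exact test in which the biological coefficient of variation was set to 0.1 by assumption, since it cannot be estimated from 1 group, called 1516 genes (7.69%). In it MTATP8P1 had an adjusted p of 0.0394 and the other 6 members had 0.377 to 0.658. For MTATP8P1 and MTATP8P2 summed, a choice made after the data were seen, the adjusted p of the same edgeR test was 0.369. The part of the division of reads in the value of MTATP8P1 was not tested.

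By size, the ratio of MTATP8P1 was exceeded by 3.39% of these 796 genes, and 94.6% of those genes lay within 0.5 of 0 on the log2 scale. Their median log2 ratio was -0.16, near those of the 6 lower members. Summed over the 7 members the log2 ratio was -0.18 (0.883-fold), without MTATP8P1 -0.26 (0.833-fold), and for MTATP8P1 and MTATP8P2 together 0.37 (1.29-fold). The last 2 sums were chosen after the data were seen. The pair thus stayed higher in replicate 2, by less than MTATP8P1 alone.

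GC content moved with the difference between the libraries. MTATP8P1 had 38.2% GC, the lowest of the members, and the other 6 had 43.1% to 48.3%. Among the 13544 genes that had a known GC content and 100 or more reads over both libraries, the 1030 within 1 percentage point of MTATP8P1 had a median log2 ratio of 0.50, and 61.7% of them had a lower ratio than MTATP8P1. For the other members the medians of such neighbours were -0.05 to 0.14, and 1.86% to 9.52% of the neighbours lay below the member. MTATP8P1 was thus 0.11 above the median of its GC neighbours and the other members were 0.25 to 0.45 below theirs. MTATP8P2, with 39.1% GC, had a log2 ratio of -1.81, where its neighbours had a median of 0.41 and none lay below it. The pair summed, chosen after the data were seen, had a log2 ratio of 0.37, below both medians, 0.50 and 0.41. These neighbours needed only 100 reads, far fewer than the members had, and genes with more reads lay lower. The median log2 ratio was -0.02 over genes with 100 or more reads and -0.16 over those with 10000 or more. The GC medians are therefore not at like depth. Where the members and the pair lie among GC neighbours of their own depth was not computed. The part of GC content in these differences was not tested. Length was set beside them too: 40 genes of 100 to 300 bases had a median log2 ratio of -0.13 with an SD of 0.77, and 7.5% of them exceeded MTATP8P1.

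**Figure D5:**
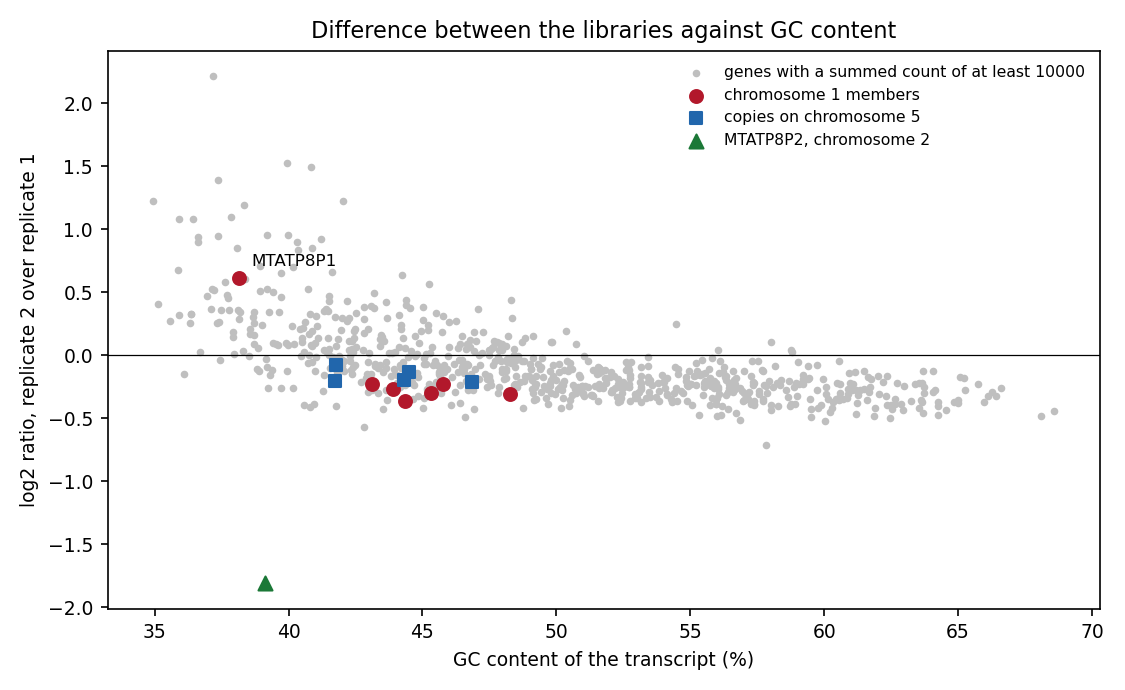
Log2 ratio of replicate 2 over replicate 1 against the GC content of the transcript (%) for genes with 10000 or more reads over both libraries (grey), the 7 members (red circles), 5 copies on chromosome 5 (blue squares) and MTATP8P2 (green triangle). MTATP8P1, at 38.2% GC, is among low-GC genes that are higher in replicate 2, the other members lie between -0.37 and -0.22, and MTATP8P2 lies at -1.81.

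The copies on chromosome 5 had log2 ratios of -0.08 to -0.21, the same direction as the 6 lower members. Of the 12 other copies with at least 1000 reads in both libraries, the ratios nearest to that of the members' sum were those of MTCO1P53 (-0.18), MTND4P12 (-0.20) and MTND4LP30 (-0.21), compared over these 2 libraries only. Among the listed genes that the annotation used here places, the single other one overlapping the insertion was ENSG00000230021. It is a transcribed processed pseudogene on the opposite strand that shares 160 exon bases with members. Genes outside that list were not searched. It had 3.25 and 5.52 reads, with posterior SDs of 2.23 and 1.88. No source used here says whether counting used the strand, so reads from either strand of the shared bases cannot be told apart.

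Nuclear genes for the same biology were at far lower levels. All 19 matched genes of the mitochondrial RNA machinery (of 20 listed), which transcribe, process and stabilise mitochondrial RNA, were detected, with TPM from 4.26 to 181. The highest was ELAC2, which cuts the 3′ ends of mitochondrial tRNAs, with a mean of 163, and the lowest was TFB2M, a transcription initiation factor, with 6.42. The members' TPM was 177 and 187 times the sum of this list. In the test between libraries 6 of its genes were higher and 5 lower in replicate 2, beside 21.7% higher and 19.9% lower among all genes tested and 70.4% called among those with 1000 or more reads over both libraries. The list's median log2 ratio was -0.05 and that of all genes tested was 0.02. All 16 nuclear-encoded respiratory chain subunits were detected, from COX6C, a subunit of complex IV, with a mean TPM of 27.7 ± 3.30 (SD, n = 2), to ATP5F1B, the catalytic subunit of ATP synthase, with 979 ± 126. Their sum was exceeded 47.5-fold and 58.1-fold by the members. Of the subunits 14 were lower in replicate 2 and 0 were higher, with a median log2 ratio of -0.24, beside the same 70.4% called and a median of -0.06 among genes with 1000 or more reads. Of genes with 1000 or more reads, 56.7% had a log2 ratio below 0. Some genes of both lists, such as TFB2M and COX6C, had fewer reads than that limit. Nothing particular to the subunits is read from these counts.

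Markers of the cell line were checked once. All 6 matched markers of HEK293T cells were detected, from VIM, an intermediate filament gene, with a mean TPM of 647, to PAX2, a kidney transcription factor, with 7.35. Among 5 matched markers of other cells PTPRC and CD3E had no reads, ALB and HBB had 3 or fewer in each library, and the collagen gene COL1A1 had a mean TPM of 22.5.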

How the data were processed

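Poly(A)+ RNA of 2 replicates was sequenced by the authors. The submitters' processing notes name Trimmomatic 0.36, STAR 2.6.1c, RSEM 1.3.1 and the builds hg19 and GRCh37.p13, and the methods text names featureCounts, although the columns are those of RSEM. In the labels the molecule is genomic DNA, but the protocol describes RNA. Expected counts were deposited by the authors with reads shared among genes, which can move reads between similar copies. TPM and FPKM values were scaled by the authors to effective length and library total. Posterior SDs and credibility bounds of TPM, read here as a signal that is never negative, were deposited with them. The table of the series as a whole was read here as pooled over both libraries, from its counts and not from a label.

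Members were matched by symbol, and positions, sequences and GC content came from GRCh37 with a GENCODE annotation. The members and gene lists were chosen with earlier results of these data known. Mitochondrial alignments used edlib 1.3.9.post1 in Python 3.11.15. Rounded expected counts were compared between libraries gene by gene with an exact binomial test, two-sided and given the gene's total over both, with TMM sizes from edgeR 4.0.16, R 4.3.3, a pseudocount of 0.5 for log2 ratios, and Benjamini-Hochberg adjustment at 0.05 over genes with 10 or more counts. The test was tried on simulated data first. Those data held counting variation only, so they do not show how the test behaves where libraries vary further. It compares libraries only, since 1 group of 2 libraries allows no test of a condition. Counting intervals are exact at 95%. Alternatives were scaling by totals, TPM or DESeq2 1.42.0, other units, count minimums and windows, leaving out each replicate, and the exact test of edgeR at a biological coefficient of variation set to 0.1. Sums without MTATP8P1 or with MTATP8P2 were added after the data were seen. Named genes were the members, the other listed gene overlapping them and the next copy of each family. Also named were the 3 copies with the ratio nearest to that of the members' sum and the 6 abundant genes. The highest and lowest gene of each other list completed them. MTATP8P2 outside the family share, the chromosome 5 copies, MTND3P19, MTND3P25 and the marker genes beyond the highest and lowest were singled out after their values were seen.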

Additional observations from a re-analysis of the deposited data

How the results depend on the processing

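The members' share of the libraries, a mean of 16.2% of TPM, was 7.15% of expected counts and 7.15% of posterior mean counts, and 10.7% of TPM without MTATP8P1. Over leaving out each replicate it ranged from 15.5% to 16.8%. The number of genes that differed between the libraries fell to 1516 with the edgeR exact test and its assumed variation, in which MTATP8P1 (adjusted p = 0.0394) was no longer past the threshold when summed with MTATP8P2 (0.369). The members' share of the reads of the 7 families was 98.3% of counts and 95.6% of TPM. The share of windows found in the mitochondrial chromosome was 60.5% for windows of 30 bases, 94.8% with up to 2 mismatches and 19.5% for windows of 100 bases. The members' log2 ratios kept their directions under every scaling tried (library totals with and without the members, DESeq2 size factors and TPM), with posterior mean counts and with the other pseudocount. Leaving out a replicate leaves no ratio between replicates. No paired analysis was possible because the replicates form 1 group. With 2 libraries every SD rests on 2 values. Each member had 25013 or more reads in each library, so counting error was small beside the differences between libraries.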
